A study of Homo sapiens with 4 samples.

Results

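Ribosome biogenesis and nucleolar genes were followed in the messenger RNA of Ishikawa cells, a human endometrial adenocarcinoma line, that carried the Y537S mutation of estrogen receptor alpha (gene ESR1). The set held 40 genes, chosen by name: RNA polymerase I and its factors, proteins of the small nucleolar ribonucleoproteins (snoRNPs), nucleolar scaffold proteins, and assembly factors of the 2 ribosomal subunits. All 40 were among the 26364 gene rows of the deposited table, and all 40 were among the 15599 genes kept for testing. The study had 4 RNA-seq libraries from 2 mutant clones, each grown for at least 5 days without hormones and then treated for 8 h with the vehicle, 0.1% DMSO, or with estradiol (E2) at 10 nM. The DMSO group and the E2 group therefore held 2 libraries each, 1 per clone, and both groups carried the mutation. The mutation lies in the ligand-binding domain of the receptor and is known to give activity without ligand. Each clone is 1 line derived from Ishikawa cells, and no cells without the mutation were analysed here.

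The libraries are named here by treatment and by the tag in the table, A4 or B212. No label links the tags to the numbered clones. Each clone had 1 library per treatment, so a difference between the clones cannot be told apart from a difference in culture, RNA or library handling. Nothing in the labels says that libraries of a clone came from separate cultures, and p-values measure only the spread between these 4 libraries. In a fit with both clone and treatment, that spread is how far the clones' E2 responses differ, with information shared across genes. It is not a spread between replicate cultures of a clone, which these libraries cannot give.

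As background, ribosome production begins in the nucleolus, where RNA polymerase I copies the ribosomal DNA repeats into a long precursor of ribosomal RNA. Box C/D snoRNPs guide methylation of this precursor and box H/ACA snoRNPs guide the change of uridine to pseudouridine. Assembly factors then cut, fold and load it with ribosomal proteins to give the small (40S) and large (60S) subunits. Many of these genes are known targets of MYC, which binds the E-box CACGTG with its partner MAX, and their output is tied to growth of the cell. Poly(A)-selected libraries measure the messages of these factors and not ribosomal RNA or ribosome number.

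Promoters are shown first because many of the genes share a sequence feature that their choice by name did not use. RefSeq windows of GRCh38.p14, from 250 bases before to 50 bases after the start of a gene, were matched by symbol for 34 of the 40 genes, 9 of which have more than 1 annotated start, which gave 43 windows. The palindrome CACGTG, which reads the same on both strands, occurred in at least 1 window of 17 of these 34 genes (50%). By the same count per gene it occurred in 24.3% of the other ribosome biogenesis genes (28 of 115), in 12.2% of all tested genes (1370 of 11250) and in 8.77% of all genes in the table of windows (2396 of 27305). By window it occurred in 18 of the 43 (41.9%), in 9.01% of the 16378 windows of tested genes and in 7.26% of all 35116 windows. The stretches below run from 60 bases before to 30 bases after the start, 5′ to 3′ on the strand of the gene. They show 8 genes with the E-box, in capitals, and then NOP16 and UBTF, which had none in any window. The 8 had the widest gaps between the clones among genes with a site in the printed span. NOP16 and UBTF had the widest and the narrowest gap among genes with a window and no site. The lines were thus picked by the clone difference and do not stand for the whole set.
NOL6 (chr9:33473895-33473984, minus strand): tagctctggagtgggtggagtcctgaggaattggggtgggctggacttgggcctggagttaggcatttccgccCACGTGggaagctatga
RRP9 (chr3:51941875-51941964, minus strand): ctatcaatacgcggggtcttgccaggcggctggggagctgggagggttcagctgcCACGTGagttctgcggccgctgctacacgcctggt
MRTO4 (chr1:19251745-19251834, plus strand): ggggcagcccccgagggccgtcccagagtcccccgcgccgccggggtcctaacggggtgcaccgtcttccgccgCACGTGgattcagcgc
PNO1 (chr2:68157828-68157917, plus strand): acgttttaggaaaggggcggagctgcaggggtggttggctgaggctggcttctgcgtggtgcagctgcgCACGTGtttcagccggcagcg
UTP20 (chr12:101280045-101280134, plus strand): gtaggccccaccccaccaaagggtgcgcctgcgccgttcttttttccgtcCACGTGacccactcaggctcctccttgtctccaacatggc
PES1 (chr22:30591881-30591970, minus strand): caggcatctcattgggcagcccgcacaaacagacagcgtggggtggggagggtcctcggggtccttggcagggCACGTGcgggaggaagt
DDX21 (chr10:68956587-68956676, plus strand): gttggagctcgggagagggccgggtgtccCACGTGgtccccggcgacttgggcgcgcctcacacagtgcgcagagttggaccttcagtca
WDR43 (chr2:28894607-28894696, plus strand): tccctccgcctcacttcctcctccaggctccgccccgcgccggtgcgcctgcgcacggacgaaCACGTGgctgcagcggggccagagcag
NOP16 (chr5:176388569-176388658, minus strand): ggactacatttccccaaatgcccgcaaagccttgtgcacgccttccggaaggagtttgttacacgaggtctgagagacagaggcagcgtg
UBTF (chr17:44220853-44220942, minus strand): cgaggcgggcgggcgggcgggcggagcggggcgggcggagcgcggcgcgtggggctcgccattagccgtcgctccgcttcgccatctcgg

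The position of the E-box is visible in these lines. Its first base lay 13 bases after the start in NOL6 and in PES1, 14 after in MRTO4, 9 after in PNO1 and 3 after in WDR43. In RRP9 it began 5 bases before the start, in UTP20 10 before and in DDX21 31 before. The 43 windows held 19 sites, at 19 different genome positions, between 237 bases before and 42 bases after the start. Each was counted from the annotated transcript start that its window surrounds, and 13 of the 19 (68.4%) lay after that start. Among all tested genes 167 of 1653 sites, counted once per window, did (10.1%), where 16.7% of the window lies after the start. A site within the printed span occurred in 12 of 34 genes (35.3%), against 583 of 11250 tested genes (5.18%). The palindromic estrogen response element, searched as GGTCA and TGACC with any 3 bases between them, which also covers both strands, was in a window of 0 of the 34 genes and of 3 of the 11250 tested genes (0.0267%). A match describes letters only, and binding was not measured.

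**Figure D1:**
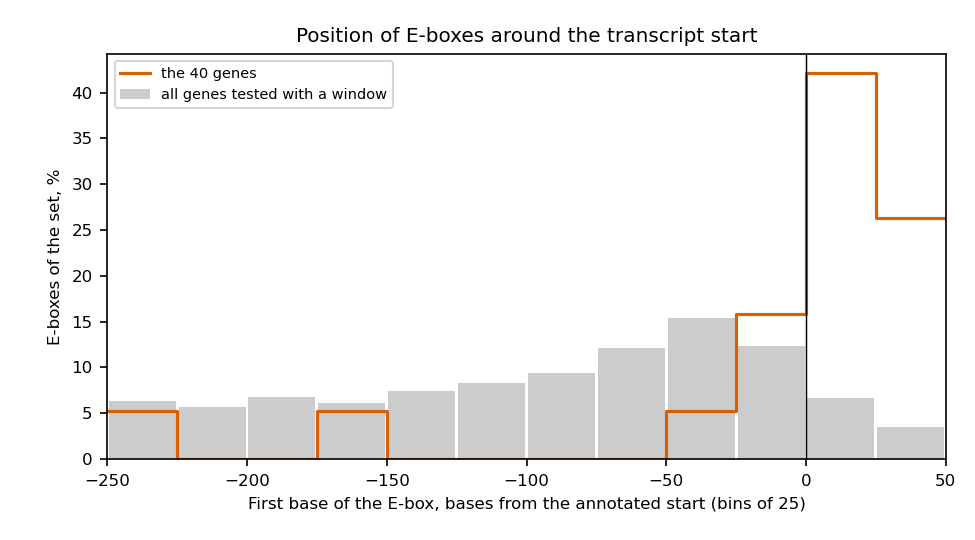
Share of CACGTG sites (percent of sites, vertical axis) by distance of the first base from the annotated start in bases (horizontal axis, bins of 25), for the 43 windows of 34 ribosome biogenesis genes and the 16378 windows of 11250 tested genes. Of the 19 sites of the set, 13 lie after the start.

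The libraries held 73872033 (A4 DMSO), 85222856 (A4 E2), 83463529 (B212 DMSO) and 71575816 (B212 E2) counts, with scaling factors between 0.963 and 1.02. Epithelial markers summed to between 2057 and 2713 CPM (counts scaled to a common library size) and endometrial markers to between 615 and 997 CPM, both higher in the B212 libraries. Stromal markers summed to 129 and 93.4 CPM in A4 and to 42.8 and 34.9 CPM in B212, nearly all of it COL1A1, while DCN, LUM and PDGFRB were under 1 CPM in every library. Leukocyte markers summed to at most 2.45 CPM, with CD3E and MS4A1 at 0, and endothelial markers to at most 5.12 CPM, with PECAM1 at 0. The part of the COL1A1, epithelial and endometrial differences in the results was not tested.

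The 40 genes took 0.940% of all counts in A4 DMSO and 0.905% in A4 E2, against 0.720% in B212 DMSO and 0.734% in B212 E2. Both A4 libraries were thus above both B212 libraries. The median gene of the set stood at 127, 123, 88.1 and 87.2 CPM in the same order, and the median over the mean levels was 107 CPM, against 20.6 CPM for all tested genes. NCL, which encodes nucleolin, the abundant nucleolar protein that binds ribosomal DNA and RNA, alone made up between 26.3% and 29.6% of the set's counts. Per kilobase of transcript NCL stood at 573 and NPM1, the gene of the nucleolar scaffold protein nucleophosmin, at 497 CPM per kb. FBL, the methyltransferase of box C/D snoRNPs, followed at 174, NOP10 of the box H/ACA particle at 128, and the particle scaffold NOLC1 and the RNA helicase DDX21 at 124 and 122 CPM per kb. BOP1 and PPAN, both 60S assembly factors, were lowest at 2.43 and 4.29 CPM per kb. POLR1A, the largest subunit of RNA polymerase I, had 8.09 CPM per kb and its partner POLR1B 19.0 CPM per kb. These levels assume 1 transcript length per gene, that of its longest coding transcript. This was 12749 bases for POLR1A and 5059 for POLR1B, whose mean levels before division by length were 103 and 96.4 CPM. Reads in exons shared with another gene, as in PPAN, may not all be counted.

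**Figure D2:**
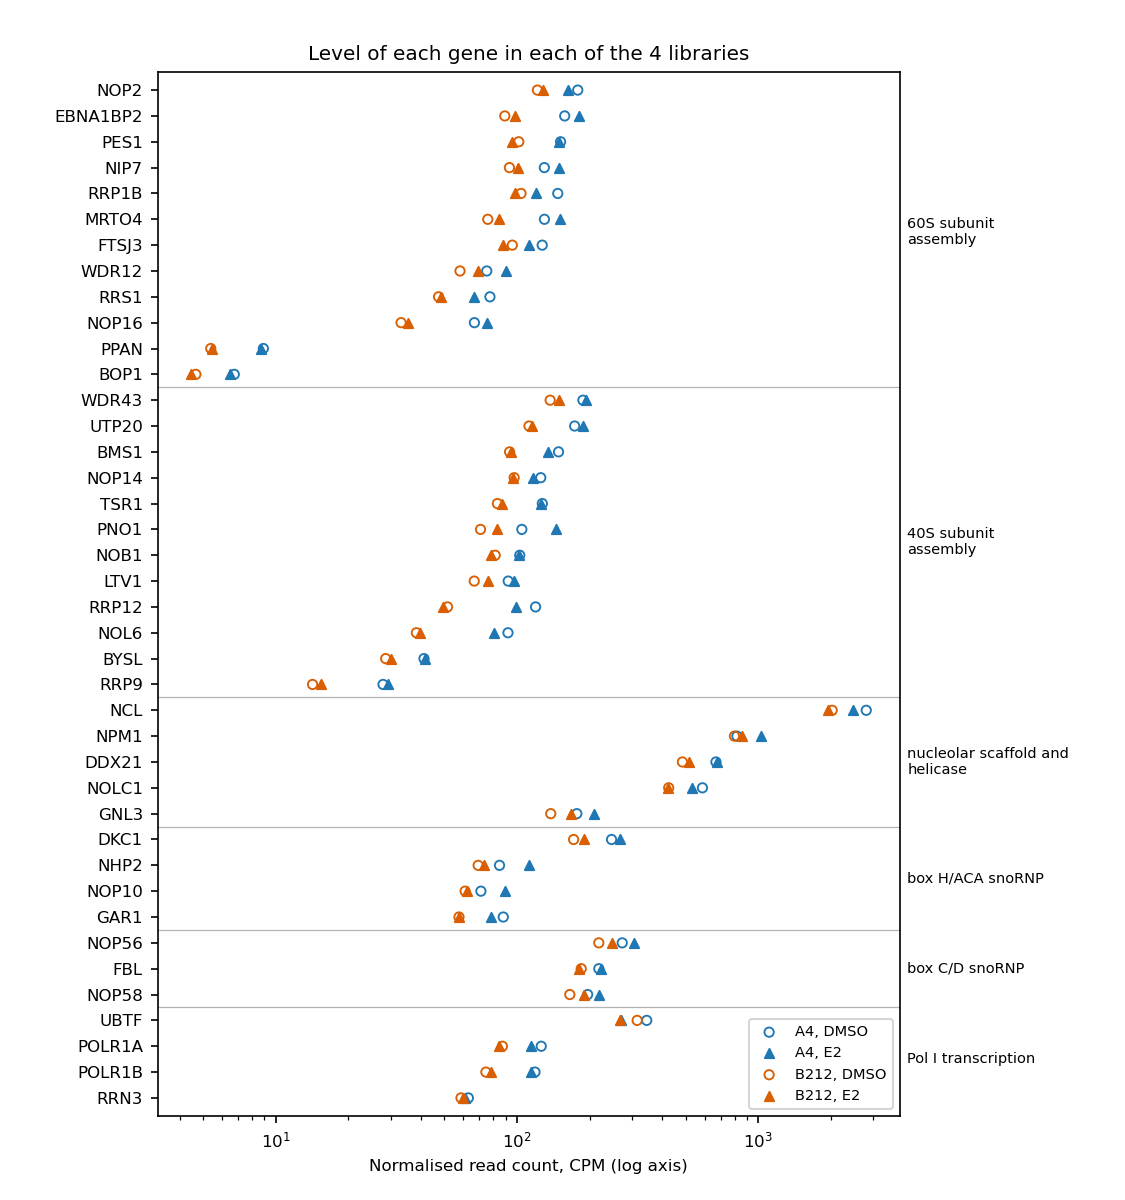
CPM on a log axis for each of the 40 genes in the 4 libraries, 1 point per library (open for DMSO, filled for E2), with genes grouped by role. Points of A4 lie to the right of those of B212, at higher CPM, for 38 of the 40 genes, and the clones overlap in UBTF and NPM1.

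The first comparison asks how the 2 mutant clones differ in this machinery. Messages of ribosome biogenesis genes were lower in B212 than in A4 in all 6 roles, by up to 2.20-fold for NOL6, with 2 of 4 RNA polymerase I genes and 4 of 5 scaffold and helicase genes passing the test and all 31 of the others. With edgeR's quasi-likelihood test, treatment as a covariate and Benjamini-Hochberg adjustment at 0.05, 37 of 40 genes (92.5%) were lower in B212 and 0 were higher. The background was wide, since 51% of all tested genes differed between the clones and 25.8% were lower in B212. The median difference over the 40 genes was -0.47 on the log2 scale, against 0.0042 over all tested genes. All 40 were lower in B212 in the DMSO libraries (median -0.51) and all 40 in the E2 libraries (median -0.45). In 38 both B212 libraries were below both A4 libraries, against 32.8% of all tested genes. UBTF, RRN3 and NPM1 did not pass the test. In bulk RNA a smaller fraction of cells with high levels and less RNA per cell cannot be told apart.

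**Figure D3:**
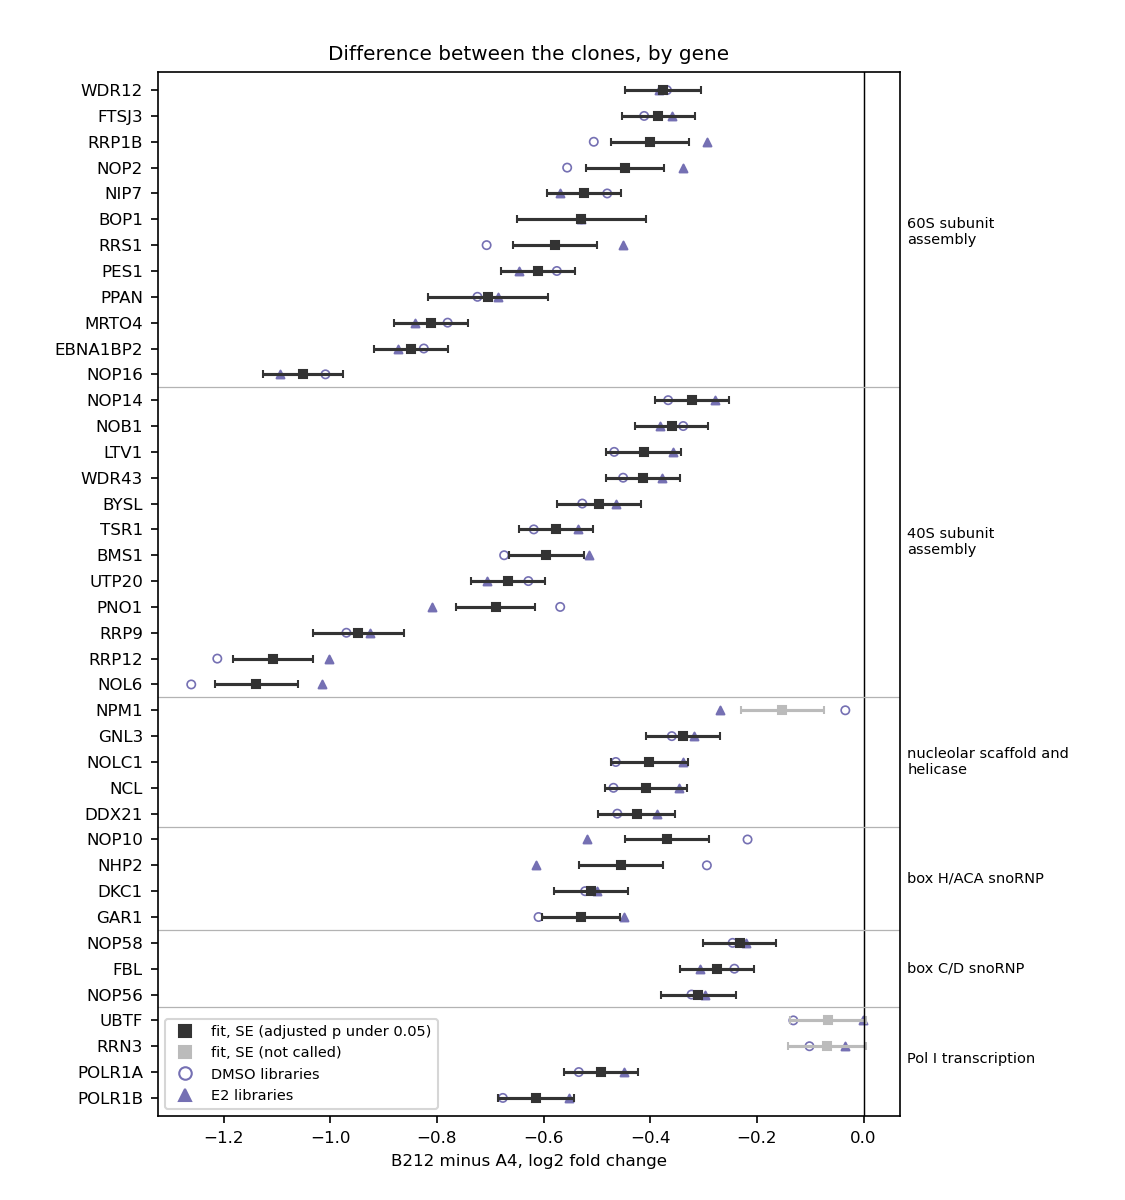
Log2 difference between the clones (B212 minus A4, horizontal axis) for each of the 40 genes, with edgeR's estimate and its standard error as a square and bar (dark where called, pale where not), the DMSO libraries as circles and the E2 libraries as triangles, grouped by role. All 40 estimates lie below 0, between -1.14 for NOL6 and -0.066 for UBTF.

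Among the RNA polymerase I genes of the set, the subunits POLR1A and POLR1B were lower in B212 and the factors UBTF and RRN3 did not pass. Other subunits and factors, outside the set and given below, were mixed. POLR1B, the second-largest subunit, had 119 and 114 CPM in A4 (DMSO and E2) and 74.4 and 77.9 CPM in B212. Both B212 values were below both A4 values, a difference of -0.61 ± 0.0705 (SE; edgeR adjusted p = 4.79e-07). POLR1A had 126 and 115 CPM in A4 and 87.1 and 84.1 CPM in B212 (-0.49 ± 0.0694, edgeR adjusted p = 6.88e-06). UBTF, the factor that keeps ribosomal DNA open and recruits the polymerase, had 345 and 269 CPM in A4 and 315 and 269 CPM in B212. Its clones overlapped and its estimate was -0.066 ± 0.0713 (edgeR adjusted p = 0.462). RRN3, the initiation factor that links the polymerase to the promoter, had 62.9, 61.1, 58.7 and 59.6 CPM, with an estimate of -0.068 (edgeR adjusted p = 0.459). Reads of RRN3 can be shared with its pseudogenes, whose 3 rows held up to 4.83% of its counts.

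All 3 box C/D genes and all 4 box H/ACA genes were lower in B212. NOP56, a core protein of the box C/D particle, had 273 and 304 CPM in A4 and 219 and 248 CPM in B212, with no overlap (-0.31 ± 0.0696, edgeR adjusted p = 9.58e-04). FBL had 219 and 223 CPM in A4 and 185 and 180 CPM in B212 (-0.27 ± 0.0693, edgeR adjusted p = 0.00259). NOP58, the partner of NOP56, was lower by the least among the called genes, A4 being 1.17-fold higher. Without the treatment term none of the 3 was called (edgeR adjusted p = 0.0715 for NOP56, 0.153 for NOP58 and 0.0551 for FBL), and with library size as the only scaling NOP58 was not (edgeR adjusted p = 0.0557). In the box H/ACA particle the differences were wider. DKC1, the pseudouridine synthase dyskerin, had 247 and 268 CPM in A4 and 172 and 189 CPM in B212 (-0.51 ± 0.0692, edgeR adjusted p = 4.16e-06). GAR1, which helps turnover of the enzyme, had 87.8 and 78.4 CPM in A4 and 57.6 and 57.4 CPM in B212 (-0.53 ± 0.0734, edgeR adjusted p = 5.57e-06). NHP2 and NOP10, the small proteins of the particle, were 1.37-fold and 1.29-fold higher in A4.

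Of the 5 scaffold and helicase genes 4 were lower in B212, by similar amounts. NCL had 2804 and 2468 CPM in A4 and 2026 and 1943 CPM in B212, the widest gap in absolute counts (-0.41 ± 0.0768, edgeR adjusted p = 1.80e-04). DDX21, which unwinds RNA in the nucleolus, had 668 and 677 CPM in A4 and 485 and 518 CPM in B212 (-0.42 ± 0.0722, edgeR adjusted p = 5.98e-05). NOLC1 had 587 and 533 CPM in A4 and 426 and 421 CPM in B212 (-0.40 ± 0.0726, edgeR adjusted p = 1.16e-04). GNL3, the GTP-binding protein nucleostemin, was 1.26-fold higher in A4. NPM1 had 816 and 1029 CPM in A4 and 797 and 853 CPM in B212. Its clones overlapped, since A4 DMSO lay below B212 E2, and its estimate was -0.15 ± 0.0775 (edgeR adjusted p = 0.109). After a trend of counts with transcript length and GC content was removed from each library, NPM1 passed (edgeR adjusted p = 0.0383).

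All 12 genes of 40S assembly were lower in B212, with a median of -0.59. NOL6, a component of the early small-subunit processome, had 91.9 and 80.1 CPM in A4 and 38.3 and 39.6 CPM in B212. A4 was 2.20-fold higher (-1.14 ± 0.0783, edgeR adjusted p = 2.58e-10). RRP12, which helps carry pre-40S particles out of the nucleus, had 119.5 and 99.3 CPM in A4 and 51.6 and 49.6 CPM in B212 (-1.11 ± 0.0744, edgeR adjusted p = 1.78e-10). RRP9, which binds the U3 snoRNA, came next, 1.93-fold higher in A4 at 27.9 and 29.2 CPM against 14.2 and 15.4 CPM in B212. PNO1, which sits at the site of the last cleavage of the 18S precursor, was 1.61-fold higher in A4. WDR43, a processome protein, had 188 and 193 CPM in A4 and 137 and 149 CPM in B212 (-0.41 ± 0.069, edgeR adjusted p = 4.84e-05). The scaffold UTP20 (-0.67), the GTPase BMS1 (-0.59), its relative TSR1 (-0.58), BYSL (-0.50), the export factor LTV1 (-0.41), the endonuclease NOB1 (-0.36) and NOP14 (-0.32) were also lower. Rows of BMS1 pseudogenes, 7 in number, held up to 18.2% of the counts of BMS1, which leaves its value uncertain.

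All 12 genes of 60S assembly were lower in B212 as well, with a median of -0.55. NOP16 had 66.7 and 75.4 CPM in A4 and 33.1 and 35.3 CPM in B212, so that A4 was 2.07-fold higher (-1.05 ± 0.0756, edgeR adjusted p = 5.08e-10). EBNA1BP2 had 158 and 180 CPM in A4 and 89.1 and 98.3 CPM in B212 (-0.85 ± 0.069, edgeR adjusted p = 3.26e-09). MRTO4, a relative of the ribosomal stalk protein P0 that holds its place during assembly, was 1.75-fold higher in A4. The 3 proteins of the PeBoW complex, which is needed to process the 28S and 5.8S precursor, were all lower in B212: PES1 by -0.61, BOP1 by -0.53 and WDR12 by -0.38. NOP2, a methyltransferase of 28S rRNA, had 179 and 163 CPM in A4 and 122 and 129 CPM in B212 (-0.45 ± 0.0727, edgeR adjusted p = 3.68e-05). PPAN (-0.70), RRS1 (-0.58), NIP7 (-0.52), RRP1B (-0.40) and FTSJ3 (-0.38) made up the rest. PPAN had between 398 and 716 counts per library, and the row of its read-through transcript with P2RY11 was at 0 in all 4. Exons of PPAN overlap that transcript and P2RY11 on the same strand. How reads in shared exons were counted is not given in the sources used here, so the level of PPAN is uncertain.

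Over the 40 genes, 18 were lower by at least 0.5 and 3 (NOL6, RRP12 and NOP16) by at least 1 on the log2 scale. Across genes, the difference between the clones in DMSO went with that in E2 (Pearson r = 0.861, Spearman rho = 0.799, 40 genes, a description in which each clone's libraries come from 1 line). The difference was smaller in genes with higher levels (r = 0.393, rho = 0.449, with log2 mean CPM), and somewhat wider in genes of higher GC content (r = -0.356, rho = -0.319). With the length and GC trend removed 38 of 40 were lower in B212, against 29.7% of all tested genes. With a minimum of 1000 counts in every library, chosen after seeing the data, 35 of 38 were lower, against 26.9%, and with library size as the only scaling 36 of 40, against 20.4%. Without the treatment term 31 of 40 were, against 13.8%, and the 6 calls lost were those of the 3 box C/D genes, NOP10, GNL3 and WDR12. Exons of 11 genes of the set overlap a gene on the opposite strand, and the strand setting of the counts is not given in the sources used here. All 11 were called lower, as were 26 of the other 29, with medians of -0.52 and -0.45. The 17 genes with a CACGTG in the window had a median of -0.50 and the 17 without had -0.45, and their ranges overlapped.

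**Figure D4:**
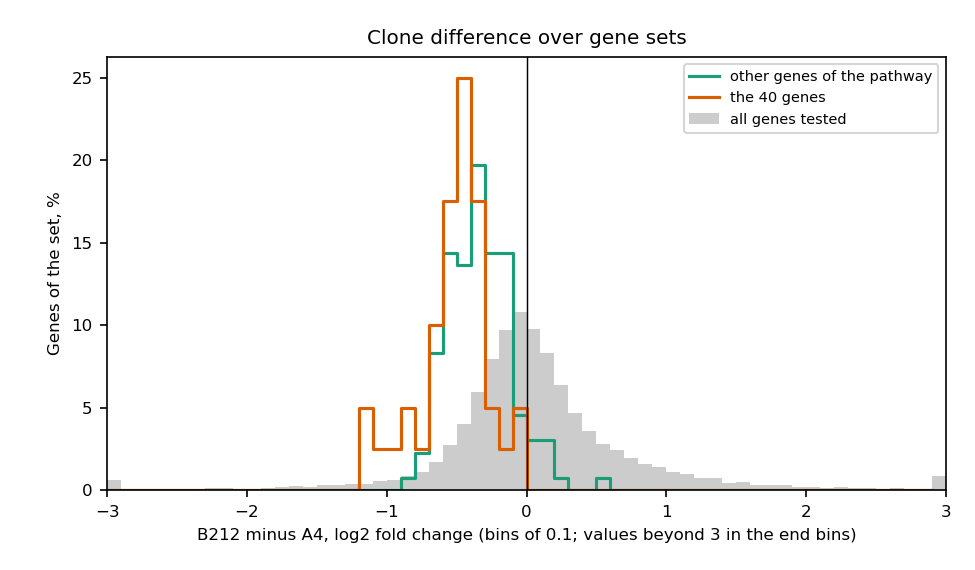
Distribution of the log2 difference between the clones (B212 minus A4, horizontal axis) over all 15599 tested genes, the other ribosome biogenesis genes and the 40 genes of the set, in bins of 0.1, as percent of each group's genes (vertical axis). Values beyond 3 are in the end bins. The set has its median at -0.47 and all tested genes at 0.0042.

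The other genes of the pathway came from a list of 134, of which 132 were tested. With the same edgeR test 102 of them (77.3%) were lower in B212, against 25.8% of all tested genes, and 3 were higher. Their median was -0.36. Among other 40S assembly genes 42 of 47 were lower, among other 60S assembly genes 39 of 49, and among pre-rRNA exonucleases 11 of 16. Other snoRNP genes were lower in 6 of 9. Other RNA polymerase I genes and factors were mixed, with 4 of 11 lower and 2 higher. The 2 higher ones were POLR1D, a subunit shared with RNA polymerase III (0.19, edgeR adjusted p = 0.0300), and TAF1D, part of the selectivity factor of polymerase I (0.27, edgeR adjusted p = 0.00375). POLR1D was no longer called with DESeq2 size factors (edgeR adjusted p = 0.0505), without a filter (edgeR adjusted p = 0.0759) or in DESeq2 (adjusted p = 0.115), and neither gene was without the treatment term (edgeR adjusted p = 0.250 and 0.125). The third higher gene was GLTSCR2, now named NOP53, a 60S assembly factor (0.52, edgeR adjusted p = 2.87e-06). IMP4, a partner of the U3 snoRNP, had the widest difference in the other direction (-0.83, edgeR adjusted p = 2.97e-08). These 4 genes were chosen after their values were seen.

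The second comparison asks what 8 h of E2 changed. Few ribosome biogenesis messages responded, and those that did moved in both directions by less than 0.5 on the log2 scale. Without the clone as a block, edgeR called 0 of 15599 genes (0%) and therefore 0 of the 40, with 150 genes and 0 of the set at an unadjusted p under 0.05. DESeq2 called 1 gene and limma-voom 0, none of them in the set. In that fit the clones' difference counts as spread between replicates, and edgeR's biological coefficient of variation was 32.2%, against 5.99% with the clone as a block. With the clone as a block edgeR called 1492 genes (9.56%), of which 6.13% of tested genes were higher and 3.44% lower. Of the 40, 4 passed (10%): PNO1, GNL3 and WDR12 rose and UBTF fell. Their share is near the background. The median response of the 40 was 0.012 with the block, against -0.0081 for all tested genes. The following values are from the fit with the block, which pairs the libraries of a tag.

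PNO1 had 105 CPM in A4 DMSO and 145 in A4 E2, and 70.7 and 82.9 CPM in B212. E2 was above DMSO within each clone, by 0.47 in A4 and 0.23 in B212, although A4 DMSO lay above B212 E2. Its estimate was 0.35 ± 0.074 (edgeR with the block, adjusted p = 0.00672), and 0.23 once length and GC trends were taken out (edgeR adjusted p = 0.0216). GNL3 went from 177 to 209 CPM in A4 and from 138 to 168 CPM in B212 (0.26 ± 0.0687, edgeR with the block, adjusted p = 0.0218). It was no longer called with the trend removed (0.14, edgeR adjusted p = 0.168). WDR12 went from 75.0 to 90.3 CPM in A4 and from 58.1 to 69.2 CPM in B212 (0.26 ± 0.0705, edgeR with the block, adjusted p = 0.0261), and its value with the trend removed was 0.27 (edgeR adjusted p = 0.00751). GNL3 and WDR12 also lost their calls with the block in DESeq2 (adjusted p = 0.0582 and 0.0909) and with DESeq2 size factors (edgeR adjusted p = 0.0512 and 0.0553), while PNO1 and UBTF passed in both. The other 2 proteins of PeBoW, PES1 and BOP1, were not called. Across the 40 genes the response was lower for longer genes (r = -0.384, rho = -0.390) and for genes of higher GC content (r = -0.395, rho = -0.372), a description over genes that share libraries.

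UBTF had 345 CPM in A4 DMSO and 269 in A4 E2, and 315 and 269 CPM in B212, so both E2 libraries were below both DMSO libraries. It fell by 0.36 in A4 and by 0.23 in B212, and its estimate was -0.30 ± 0.0714 (edgeR with the block, adjusted p = 0.0144). After removal of the trend it was -0.17 and no longer passed (edgeR adjusted p = 0.081). POLR1A had an estimate of -0.093 ± 0.0693 (edgeR with the block, adjusted p = 0.427). Besides UBTF, NPM1 was the other gene of the 40 whose DMSO and E2 values did not overlap, where 25% of all tested genes had none. NPM1 went from 816 to 1029 CPM in A4 and from 797 to 853 CPM in B212 but did not pass (0.22 ± 0.0775, edgeR with the block, adjusted p = 0.0834).

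The other snoRNP, scaffold and assembly genes stayed short of the threshold with the block. NOP56 had 0.17 ± 0.0695 (edgeR adjusted p = 0.133) and NOP58 0.18 ± 0.0688 (edgeR adjusted p = 0.112), both higher with E2 in both clones. NHP2 went from 84.7 to 112 CPM in A4 and from 69.1 to 73.0 CPM in B212, a step of 0.40 against 0.079, and had an estimate of 0.24 (edgeR adjusted p = 0.058). NOP10 had a like pattern, 0.33 in A4 and 0.027 in B212 (edgeR adjusted p = 0.158). The differences between these steps were not tested. DKC1 had 0.13 (edgeR adjusted p = 0.255), NCL -0.12 (edgeR adjusted p = 0.336), WDR43 0.078 (edgeR adjusted p = 0.514), RRP12 -0.16 (edgeR adjusted p = 0.164), NOP2 -0.029 (edgeR adjusted p = 0.842) and MRTO4 0.19 (edgeR adjusted p = 0.0863). With the trend removed 5 of the 40 passed, against 5.75% of tested genes. They were PNO1, WDR12, MRTO4 (0.20, edgeR adjusted p = 0.0347) and NOP56 (0.20, edgeR adjusted p = 0.0416), which were higher, and GAR1, which was lower (-0.25, edgeR adjusted p = 0.0332). With at least 1000 counts in every library and the block, 8 of 38 passed, against 21.4% of the genes tested there.

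Within the clones, 19 of the 40 genes were higher with E2 in both, 12 were lower in both and 9 moved in opposite directions. In several of the 9 the counting interval reached both signs in A4, in B212 or in both. Responses ran from -0.36 to 0.47 in A4 and from -0.23 to 0.28 in B212, and none of the 40 estimates with the block reached 0.5 in either direction. Across genes the 2 clones' responses went together (Pearson r = 0.741, Spearman rho = 0.753, 40 genes, a description). Of the variance of log2 CPM over the 4 libraries in the 40 genes, 92.5% lay between the tags, 6.10% between the treatments and 1.39% in their interaction. The shares over all tested genes were 84.1%, 10.1% and 5.76%.

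**Figure D5:**
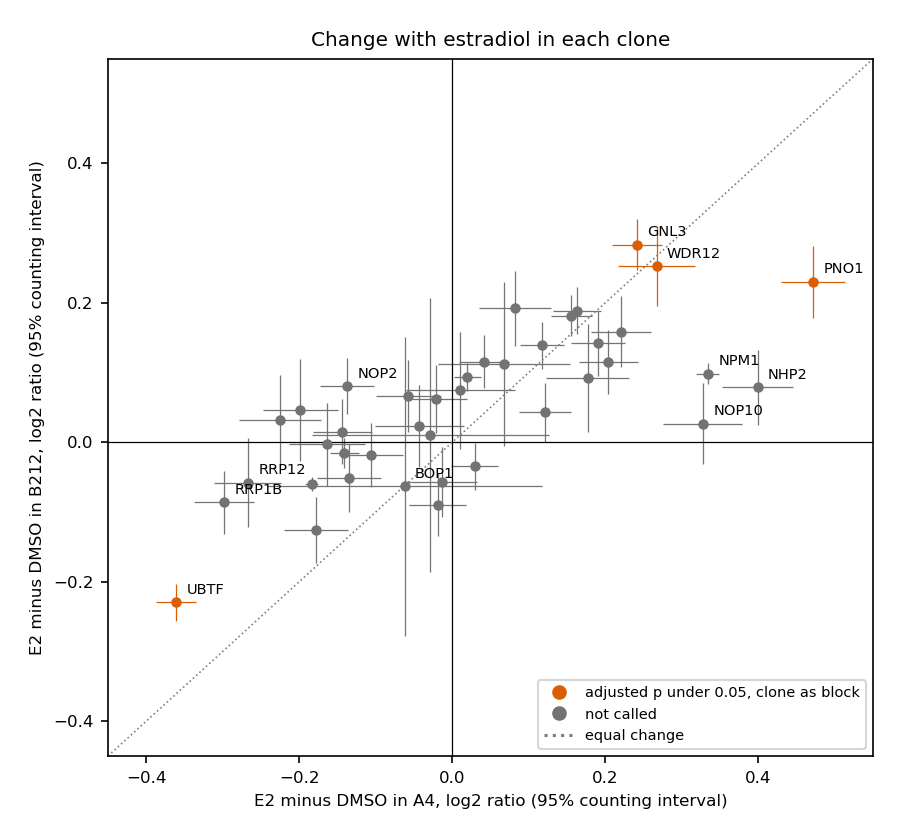
Log2 ratio of E2 to DMSO in A4 (horizontal axis) against that in B212 (vertical axis) for the 40 genes, with the 4 genes called with the clone as a block in orange, the dotted line for equal change, and bars for the 95% interval of counting error. PNO1, at 0.47 and 0.23, lies at the upper right, and UBTF, at -0.36 and -0.23, at the lower left.

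In edgeR's fit with the block, 18 of the 132 other pathway genes tested rose with E2 and 1 fell. The share called was 14.4%, against 9.56% of all tested genes. The median response of the 132 was 0.072, and 7 of the 19 called genes were also called with the trend removed. RSL24D1, a 60S assembly factor, had 236 and 365 CPM in A4 and 211.7 and 263 CPM in B212 (0.47 ± 0.0782, edgeR adjusted p = 0.00145). C1D, a cofactor of the nuclear exosome, had 25.6 and 41.6 CPM in A4 and 31.6 and 36.0 CPM in B212 (0.44 ± 0.0978, edgeR adjusted p = 0.00893). With the trend removed RSL24D1 still passed (0.25, edgeR adjusted p = 0.0128) and C1D did not (0.19, edgeR adjusted p = 0.119). DDX54, a nucleolar RNA helicase, was the gene that fell, from 102 to 86.0 CPM in A4 and from 80.3 to 69.7 CPM in B212 (-0.22 ± 0.0695, edgeR adjusted p = 0.0486). Its call was lost with the block in DESeq2 (adjusted p = 0.121), in limma-voom (adjusted p = 0.0599), with DESeq2 size factors (edgeR adjusted p = 0.0667) and with the trend removed (edgeR adjusted p = 0.399). NOL9, a kinase that acts on the 28S precursor, had 68.7 and 52.7 CPM in A4 and 58.4 and 54.0 CPM in B212 and did not pass (-0.25 ± 0.0789, edgeR adjusted p = 0.0519). Of the set, the 17 genes with a CACGTG in the window had a median E2 response of 0.078 and the 17 without one 0.0040. Their ranges overlapped, and the difference was not tested.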

How the data were processed

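The deposited values were counts of reads per gene symbol, made by the authors. HISAT2, SAMtools, featureCounts and DESeq2 and the hg19 build are named, per the submitters' processing notes, with no versions, and the strand setting is not given in the sources used here. Per the labels' protocols, libraries were stranded, poly(A)-selected and made from 500 ng of RNA. The names of the table's columns gave treatment and tag. Another 4 columns matched no sample and were not used.

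Genes were filtered by filterByExpr (minimum count 10), scaled by TMM and fitted with edgeR 4.0.16 across all genes in R 4.3.3. The main E2 fit had no block. The fit with the tag as a replicate block was computed too, because it changes the count of calls. Counts of calls are given for both fits. E2 estimates and adjusted p-values of single genes are from the fit with the block, except where a library was left out. Deviations of same-tag libraries from their group means correlated at r = 0.871, which with 2 groups of 2 is a single value. The comparison between tags was adjusted for treatment. Standard errors were computed as the fold change over the root of F. Alternatives used DESeq2 1.42.0, limma 3.58.1 and other scalings, filters and left-out libraries, and a per-library trend with length and GC content (mgcv 1.9.3, GENCODE 29), for which 96.6% of tested genes had a length. Figures were drawn with matplotlib 3.10.9 in Python 3.11.15. The fits were also run on simulated counts. The E2 changes put in were equal in both clones and wider than any E2 estimate of the set with the block. That run therefore does not show how well changes as small as those of the set are found.

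The genes, lists and tests were chosen with earlier results of these data known. Tests are printed, by role, for the gene with the highest mean CPM and the 2 with the smallest p for each comparison (E2 with the block, and the tags), and for the 2 other pathway genes with the smallest p in each direction with E2. Genes named outside this rule were chosen after their values were seen. Intervals and p-values cover these libraries only.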

Additional observations from a re-analysis of the deposited data

Results flagged for a closer look

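In 9 of the 40 ribosome biogenesis genes, and in the median over all 40, the log2 ratio of E2 to DMSO had opposite signs in the clones. The differences were not tested. RRS1 was at -0.23 in A4 but 0.032 in B212, which differ by 0.257, NOL6 at -0.20 but 0.046, which differ by 0.245, and NOP2 at -0.14 but 0.080, which differ by 0.218. The differences, B212 minus A4, were 0.159 for BMS1, 0.124 for POLR1B, 0.0836 for TSR1, 0.0666 for RRN3, 0.0392 for PPAN and -0.0639 for FBL. The 95% counting interval in B212 reached both signs for RRS1 (-0.034 to 0.097), NOL6 (-0.026 to 0.119) and BMS1 (-0.032 to 0.062). It did so in A4 for TSR1 and FBL, and in both clones for RRN3 and PPAN. Only POLR1B and NOP2 had opposite signs with neither interval reaching both. The median ratio was -0.0013 in A4 but 0.054 in B212, which differ by 0.055.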

How the results depend on the processing

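With the tag as a replicate block, which pairs the libraries, E2 called 1492 genes in edgeR, 533 in DESeq2, 1138 in limma-voom, 717 with DESeq2 size factors in edgeR, 897 with the length and GC trend removed and 1812 with at least 1000 counts in every library, a minimum chosen after seeing the data. Calls in the set were 4, 2, 4, 2, 5 and 8 of 40 (of 38 in the last), and in the other pathway genes 19, 8, 13, 8, 10 and 27. Without the block the calls were 0, and 1 with DESeq2. The set's median E2 response without the block was 0.0062. It became -0.0011 with DESeq2 size factors, -0.017 with library size alone, -0.00040 with at least 10 counts in every library and -0.0012 in DESeq2. Without 1 library it ran from -0.29 to 0.31, being negative without A4 E2 or B212 DMSO and positive without either of the others. The other pathway genes' median without the block was 0.067. It became 0.045 with library size alone and ran from -0.12 to 0.26 without 1 library. In the fit that had the block and the trend removed, which differs in both respects, it was 0.029. With the block and the trend removed the sign changed for POLR1A (0.031), NOP10 (-0.068), NOP2 (0.038), NOL6 (0.057), PES1 (0.010) and LTV1 (-0.027). For E2, libraries were left out only from the fit without the block. The ranges that follow are therefore not ranges of the estimates with the block given above. Leaving out 1 library unbalances the clones and leaves 1 arm with a single library, assumed to vary like the other group. Estimates then ran from -0.36 to 0.19 for POLR1A, -0.0062 to 0.34 for NOP56, -0.16 to 0.41 for DKC1, -0.093 to 0.54 for NHP2, -0.10 to 0.43 for NOP10, -0.34 to 0.12 for NCL, -0.14 to 0.32 for WDR43, -0.099 to 0.73 for PNO1, -0.80 to 0.53 for RRP12, -0.29 to 0.26 for NOP2 and -0.30 to 0.64 for MRTO4.

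Between the clones, 4456 genes were called without the treatment term, of which 31 of the set were lower (background 13.8%), and 4439 with at least 1000 counts, with 35 of 38 lower (background 26.9%). With library size alone 36 of the set were lower (background 20.4%), while the median of all tested genes moved from 0.0042 to 0.071, the set's median was -0.41 and UBTF was at 0.00087. The median was -0.40 with at least 1000 counts and ran from -0.51 to -0.45 without 1 library. The other pathway genes' median was -0.37 with DESeq2 size factors, without a filter, in DESeq2 and with the trend removed, and -0.29 with library size alone and with at least 1000 counts. It ran from -0.38 to -0.33 without 1 library, where no residual degrees of freedom remain and no calls can be made. Causes of these changes were not tested. BOP1 and PPAN, with the fewest counts of the set, had the widest standard errors between the clones (0.121 and 0.113).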
